A study of Mus musculus with 24 samples.

Results

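The genes described here are 10 enzymes of sphingolipid metabolism, namely Sgms1, Sgms2, Degs1, Sptlc1, Sptlc2, Cers2, Cers5, Cers6, Sphk1 and Sphk2, out of 53801 genes in the count table. They were brought together around Sgms2, which was selected on its response to BRD3308 in these libraries, upward in WT-ERG cells and downward in BB cells. The values of Sgms2 in WT-ERG and BB cells are therefore given as a description with no test, and the other members were tested in a fit of the whole table. RNA was sequenced from ER-Hoxb8 cells, a conditionally immortalised murine granulocyte-monocyte progenitor line that matures towards neutrophils once beta-estradiol is withdrawn. The lines stably carried a lentivirus for human WT-ERG, for human P199L-ERG (a point mutant of this ETS family transcription factor), or the empty vector (BB), and had been sorted for GFP. In every group beta-estradiol had been washed out, and cells received 5 µM BRD3308, an inhibitor of the histone deacetylase HDAC3, or DMSO, for 36 h. The 6 groups were WT-ERG, P199L-ERG and BB cells in BRD3308 and the same 3 lines in DMSO, with 4 libraries each. Nothing stated that the 4 libraries of a construct came from separate transductions, so a difference between constructs cannot be told apart from a difference between derived lines, and p-values measure the spread between these cultures only.

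Sphingolipids are built from serine and a fatty acyl-CoA. Serine palmitoyltransferase, whose subunits are Sptlc1 and Sptlc2, makes the first long-chain base, ceramide synthases such as Cers2, Cers5 and Cers6 attach a second acyl chain, and Degs1 desaturates dihydroceramide to ceramide. Ceramide is then turned into sphingomyelin by Sgms1, in the Golgi, and Sgms2, largely at the plasma membrane, or is cut to sphingosine, which Sphk1 and Sphk2 phosphorylate to sphingosine-1-phosphate (S1P), a signal for leukocyte traffic.

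Both sphingomyelin synthase genes lie on the minus strand (GRCm38), Sgms2 on chromosome 3 (start 131318985, end 131491411) and Sgms1 on chromosome 19 (start 32122727, end 32389714). Because ERG is an ETS factor and Sgms2 differed between the constructs, the 250 bases upstream of 1 listed start of each gene are shown (RefSeq, GRCm38.p6, minus strand), with matches to the GGAA-centred words AGGAAG and CCGGAA, on either strand, in capitals. The starts chosen lay 25 bases (Sgms2) and 0 bases (Sgms1) from that of the first-numbered GENCODE transcript.
Sgms2, chr3:131344909-131345158: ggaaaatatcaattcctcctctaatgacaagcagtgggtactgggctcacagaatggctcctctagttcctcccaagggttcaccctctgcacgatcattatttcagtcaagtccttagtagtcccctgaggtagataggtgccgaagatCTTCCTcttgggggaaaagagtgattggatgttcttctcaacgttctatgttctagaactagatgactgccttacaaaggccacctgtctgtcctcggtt
Sgms1, chr19:32388513-32388762: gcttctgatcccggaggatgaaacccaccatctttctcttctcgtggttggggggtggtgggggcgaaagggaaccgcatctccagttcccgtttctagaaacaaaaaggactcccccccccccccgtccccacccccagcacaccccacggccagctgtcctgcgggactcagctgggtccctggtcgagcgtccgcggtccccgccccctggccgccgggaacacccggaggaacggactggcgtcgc
The Sgms2 window held 1 match, to the reverse complement of AGGAAG, and the Sgms1 window held none. Of 32851 windows of this length over all genes, 29.5% held AGGAAG, 12.0% held CCGGAA and 38.2% held either word. Among the 24 windows of the 10 members 12 held either word, including 3 of 6 for Sgms2 and 2 of 4 for Sgms1. The windows shown also differed in composition. The Sgms2 window had 47.2% G+C and 4 CpG dinucleotides, and the Sgms1 window had 67.2% G+C and 19 CpG. The medians over all windows were 52.4% and 6. The contrast rests on the starts chosen. The Sgms2 start shown, at base 131344908, lay inside the gene, downstream of its other listed starts. In G+C, other Sgms2 windows lay on both sides of the one shown, up to 77.2% with 36 CpG. Other Sgms1 windows also lay on both sides, down to 45.6% with 3 CpG. Gene-level counts cannot tell which start was used, and a match describes letters only.

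The libraries held 12510036 to 16280939 counts, and 12963 genes passed a filter on low counts and were tested. Of the 10 members 9 passed. Sphk1 did not, and Sgms1 passed only through its BRD3308 libraries, so that it had to differ between treatments. Replicate 4 of both ERG lines in DMSO stood apart from their groups. Their deviation from the group mean fell with transcript length across 9877 genes (r = -0.47 in WT-ERG and -0.43 in P199L-ERG cells). In the other libraries r was -0.20 to 0.42, and replicate 1 went the other way in every group (0.14 to 0.42). Member calls and counts over all genes that move without replicate 4 of both ERG lines in DMSO are named below. The further pathway genes and the markers were not read in that refit.

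Sgms2 was expressed in every group, lowest in the ERG lines in DMSO and highest in BB cells in DMSO. Levels are given as CPM, the count scaled to the library total after TMM correction, and differences as log2 fold changes. In WT-ERG cells the 4 BRD3308 libraries had 170.1, 178.5, 171.7 and 176.2 CPM, against 146.8, 144.0, 139.5 and 141.1 CPM in DMSO. In P199L-ERG cells the values were 184.7, 182.0, 167.5 and 178.2 CPM in BRD3308, against 133.6, 138.4, 128.4 and 118.7 CPM in DMSO. In BB cells they were 201.6, 200.9, 196.7 and 202.4 CPM in BRD3308, against 233.6, 236.3, 245.2 and 243.2 CPM in DMSO. Treated and untreated libraries did not overlap in any of the 3 lines, with BRD3308 libraries higher in both ERG lines and lower in BB cells. The only one of these contrasts that did not serve the selection, the response in P199L-ERG cells, was a log2 fold change of 0.46 (SE 0.04, 95% interval 0.37 to 0.54, adjusted p = 2.14e-10 by edgeR's quasi-likelihood test, n = 4 and 4 libraries). Over the 32 alternative settings it lay between 0.41 and 0.49, with a largest adjusted p of 5.91e-05.

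As a description, the log2 fold change of Sgms2 with BRD3308 was 0.29 in WT-ERG cells and -0.26 in BB cells. In DMSO it was -0.75 in WT-ERG and -0.88 in P199L-ERG cells against BB cells, and -0.14 in P199L-ERG against WT-ERG cells. The order of group means was BB in DMSO (240 ± 5.50 CPM), BB in BRD3308 (200 ± 2.55 CPM), P199L-ERG in BRD3308 (178 ± 7.53 CPM), WT-ERG in BRD3308 (174 ± 3.91 CPM), WT-ERG in DMSO (143 ± 3.23 CPM) and P199L-ERG in DMSO (130 ± 8.46 CPM; SD, n = 4 each). Within this order the BRD3308-treated P199L-ERG and WT-ERG libraries overlapped, and the lowest WT-ERG library in DMSO had 139.5 CPM, next to 138.4 CPM for the highest P199L-ERG library. The BRD3308-treated groups thus spanned 174 to 200 CPM, against 130 to 240 CPM for the DMSO groups.

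**Figure D1:**
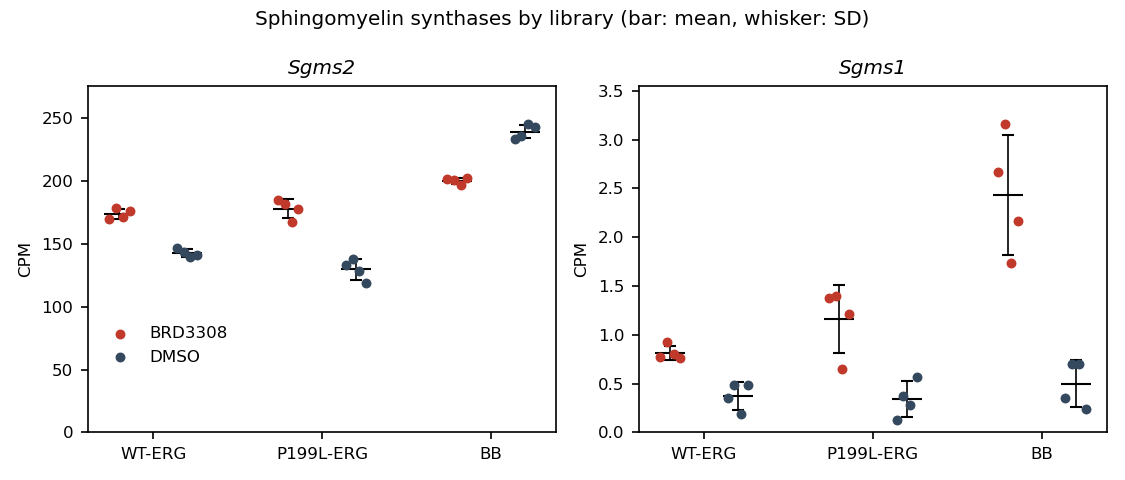
CPM of Sgms2 (left) and Sgms1 (right) in each library (points), by construct and treatment, with the group mean (bar) and SD (whisker, n = 4). Sgms2 libraries in BRD3308 lie above those in DMSO in both ERG lines and below them in BB cells, and no Sgms1 library lies above 3.16 CPM.

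The second sphingomyelin synthase, Sgms1, was close to silent, with 332 counts over all 24 libraries. Its counts were 12, 15, 12 and 10 in BRD3308-treated WT-ERG libraries, against 5, 8, 3 and 6 in DMSO. They were 21, 22, 10 and 18 in BRD3308-treated P199L-ERG libraries, against 2, 6, 4 and 8 in DMSO, and 42, 43, 26 and 30 in BRD3308-treated BB libraries, against 5, 11, 10 and 3 in DMSO. The treated libraries were higher than the untreated ones in every line without overlap. The fitted log2 fold changes were 1.12 (SE 0.39) in WT-ERG, 1.77 (SE 0.36) in P199L-ERG and 2.23 (SE 0.29) in BB cells, and are given as a description with no test, since 11 BRD3308 libraries and 2 DMSO libraries reached the count minimum of the filter. Per kb of exon, Sgms2 made up 99.3% to 99.9% of the summed level of both genes in every group, lowest in BRD3308-treated BB cells (99.3% ± 0.175, SD, n = 4). Samd8, a related enzyme that makes ceramide phosphoethanolamine, averaged 17.4 to 24.4 CPM. It was higher with BRD3308 in WT-ERG (log2 fold change 0.23, adjusted p = 0.0178) and P199L-ERG cells (0.23, adjusted p = 0.0171), and its value in BB cells was 0.15 (adjusted p = 0.109). In DMSO Samd8 was lower in WT-ERG (-0.34) and P199L-ERG cells (-0.25) than in BB cells.

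The other enzymes were read against the share of all tested genes called in the same contrast, at an adjusted p under 0.05. With BRD3308, 24.7% of all genes passed upward and 23.2% downward in WT-ERG cells, 24.4% and 24.1% in P199L-ERG cells, and 24% and 22% in BB cells. Leaving out Sgms2, Sgms1 and Sphk1, 7 members remained, of which 3 were higher and 1 lower in WT-ERG, 3 higher and 2 lower in P199L-ERG, and 5 higher and 2 lower in BB cells. Their median log2 fold changes were 0.12, 0.14 and 0.16, while the median over all genes was within 0.02 of 0 in every contrast. Those called in every line were Sptlc2, Degs1 and Cers6, upward, and Cers2, downward.

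Serine palmitoyltransferase rose in its catalytic subunit. Sptlc2 ranged over 211.1 to 220.0 CPM in BRD3308-treated WT-ERG cells, against 173.6 to 194.7 CPM in DMSO, with 210.8 to 239.3 against 188.6 to 201.1 CPM in P199L-ERG and 212.4 to 223.8 against 187.0 to 200.3 CPM in BB cells. Treated and untreated libraries did not overlap in any line, and the log2 fold changes were 0.22, 0.21 and 0.18 (SE 0.04 each, largest edgeR adjusted p = 5.09e-04). Sptlc1, the partner subunit, was the steadiest member, at group means of 61.5 to 66.9 CPM. Its log2 fold changes were 0.04 (adjusted p = 0.473) in WT-ERG, 0.03 (adjusted p = 0.621) in P199L-ERG and 0.11 (adjusted p = 0.0437) in BB cells by edgeR. The BB call was lost with DESeq2 (adjusted p = 0.0629), with library size alone (0.0585), with no filter (0.196) and in most fits that left out 1 library, such as BB replicate 3 in BRD3308 (0.162).

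Degs1, the dihydroceramide desaturase, had 91.3, 100.2, 104.8 and 106.3 CPM in BRD3308-treated WT-ERG libraries, against 76.1, 82.7, 83.2 and 98.0 CPM in DMSO. It had 97.1, 101.8, 111.1 and 108.8 CPM in BRD3308-treated P199L-ERG libraries, against 81.0, 91.8, 91.3 and 94.5 CPM in DMSO. In BB cells the values were 117.7, 123.4, 131.5 and 133.7 CPM in BRD3308, against 104.4, 112.2, 117.7 and 117.5 CPM in DMSO. The treated libraries were higher on average in each line, without overlap in P199L-ERG cells only. The log2 fold changes were 0.25 (SE 0.07, adjusted p = 0.00302), 0.22 (SE 0.07, adjusted p = 0.00585) and 0.16 (SE 0.06, adjusted p = 0.0381) in WT-ERG, P199L-ERG and BB cells by edgeR. The BB call was lost without replicate 1 or 2 of the DMSO libraries or replicate 3 or 4 of the BRD3308 libraries (adjusted p = 0.0748 to 0.138).

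The 3 ceramide synthases did not move together. Cers2, which prefers very long acyl chains and had the highest level per kb of the members (65.2 to 81.6 CPM per kb), was lower with BRD3308. Its libraries had 228.3, 244.7, 240.2 and 246.5 CPM in BRD3308-treated WT-ERG cells, against 296.8, 302.4, 299.0 and 301.9 CPM in DMSO. They had 229.3, 238.6, 239.9 and 259.4 CPM in BRD3308-treated P199L-ERG cells, against 294.4, 295.0, 305.5 and 227.3 CPM in DMSO, and 230.4, 235.3, 245.8 and 247.7 CPM in BRD3308-treated BB cells, against 282.1, 283.7, 293.4 and 295.6 CPM in DMSO. The groups did not overlap in WT-ERG or BB cells, and in P199L-ERG cells they overlapped through replicate 4 of the DMSO libraries alone. The log2 fold changes were -0.32 (SE 0.06, adjusted p = 3.58e-05) in WT-ERG, -0.22 (SE 0.06, adjusted p = 0.00282) in P199L-ERG and -0.27 (SE 0.06, adjusted p = 3.65e-04) in BB cells by edgeR, and without that replicate the P199L-ERG value was -0.31 (adjusted p = 3.44e-08). Cers2 shares 75 exonic bases with Setdb1 and 144 with 6330562C20Rik on the opposite strand, and the strand setting of the counting is not given in the sources used here.

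Cers6, which makes C16 ceramide, had the largest rise of the abundant members. It had 145.7, 148.8, 150.4 and 162.6 CPM in BRD3308-treated WT-ERG libraries, against 110.5, 109.8, 111.7 and 105.3 CPM in DMSO. It had 148.0, 148.5, 154.5 and 171.9 CPM in BRD3308-treated P199L-ERG libraries, against 115.0, 114.4, 117.1 and 103.1 CPM in DMSO, and 149.9, 161.1, 172.3 and 201.3 CPM in BRD3308-treated BB libraries, against 106.3, 123.3, 125.9 and 142.9 CPM in DMSO. No groups overlapped between treatments, and BB cells had the widest spread within each treatment. The log2 fold changes were 0.47, 0.47 and 0.46 (SE 0.07 each, largest edgeR adjusted p = 1.02e-05). Cers5, which also makes C16 ceramide, ranged over 83.1 to 94.7 CPM in BRD3308-treated WT-ERG cells, against 74.7 to 85.1 CPM in DMSO, with 83.0 to 99.3 against 75.5 to 90.7 CPM in P199L-ERG and 91.1 to 98.8 against 71.4 to 80.3 CPM in BB cells. Only the BB groups did not overlap. The log2 fold changes were 0.12 (adjusted p = 0.107) in WT-ERG, 0.14 (adjusted p = 0.0508) in P199L-ERG and 0.32 (SE 0.06, adjusted p = 7.66e-05) in BB cells by edgeR. The P199L-ERG value passed the threshold with other scaling factors, with no filter, with DESeq2 (adjusted p = 0.0488) and when any 1 of 9 libraries was left out (replicates 1, 2 and 4 of BB, 1 and 3 of WT-ERG and 1 and 3 of P199L-ERG cells in BRD3308, 1 of WT-ERG and 4 of P199L-ERG cells in DMSO), with the smallest adjusted p without the last (0.18, adjusted p = 0.00837). Without replicate 4 of both ERG lines in DMSO, Cers5 was called in WT-ERG cells too (0.14, adjusted p = 0.0429). Per kb, Cers6 made up 40.8%, 40.8% and 42.0% of the summed Cers6 and Cers5 level in BRD3308-treated WT-ERG, P199L-ERG and BB cells, against 34.98%, 35.4% and 39.7% in DMSO (SD 0.963 to 2.91, n = 4 each).

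Of the sphingosine kinases Sphk2 was well detected and fell with BRD3308 in P199L-ERG and BB cells. Sphk1 had 3 counts over all 24 libraries and at most 1 in a library, too few to compare groups at this depth. Sphk2 ranged over 63.4 to 66.1 CPM in BRD3308-treated WT-ERG cells, against 65.7 to 70.6 CPM in DMSO, with 61.8 to 67.2 against 69.7 to 78.4 CPM in P199L-ERG and 67.5 to 74.4 against 75.7 to 88.5 CPM in BB cells. The treated libraries were lower without overlap in P199L-ERG and BB cells, and overlapped with DMSO libraries in WT-ERG cells. The log2 fold changes were -0.08 (adjusted p = 0.171) in WT-ERG, -0.21 (SE 0.05, adjusted p = 6.55e-04) in P199L-ERG and -0.20 (SE 0.05, adjusted p = 0.00108) in BB cells by edgeR. Sphk2 shares 539 exonic bases with Dbp and 373 with Rpl18 on the opposite strand, and Rpl18 had 31984 counts in all against 25101 for Sphk2, so reads of these genes cannot be told apart without the strand.

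**Figure D2:**
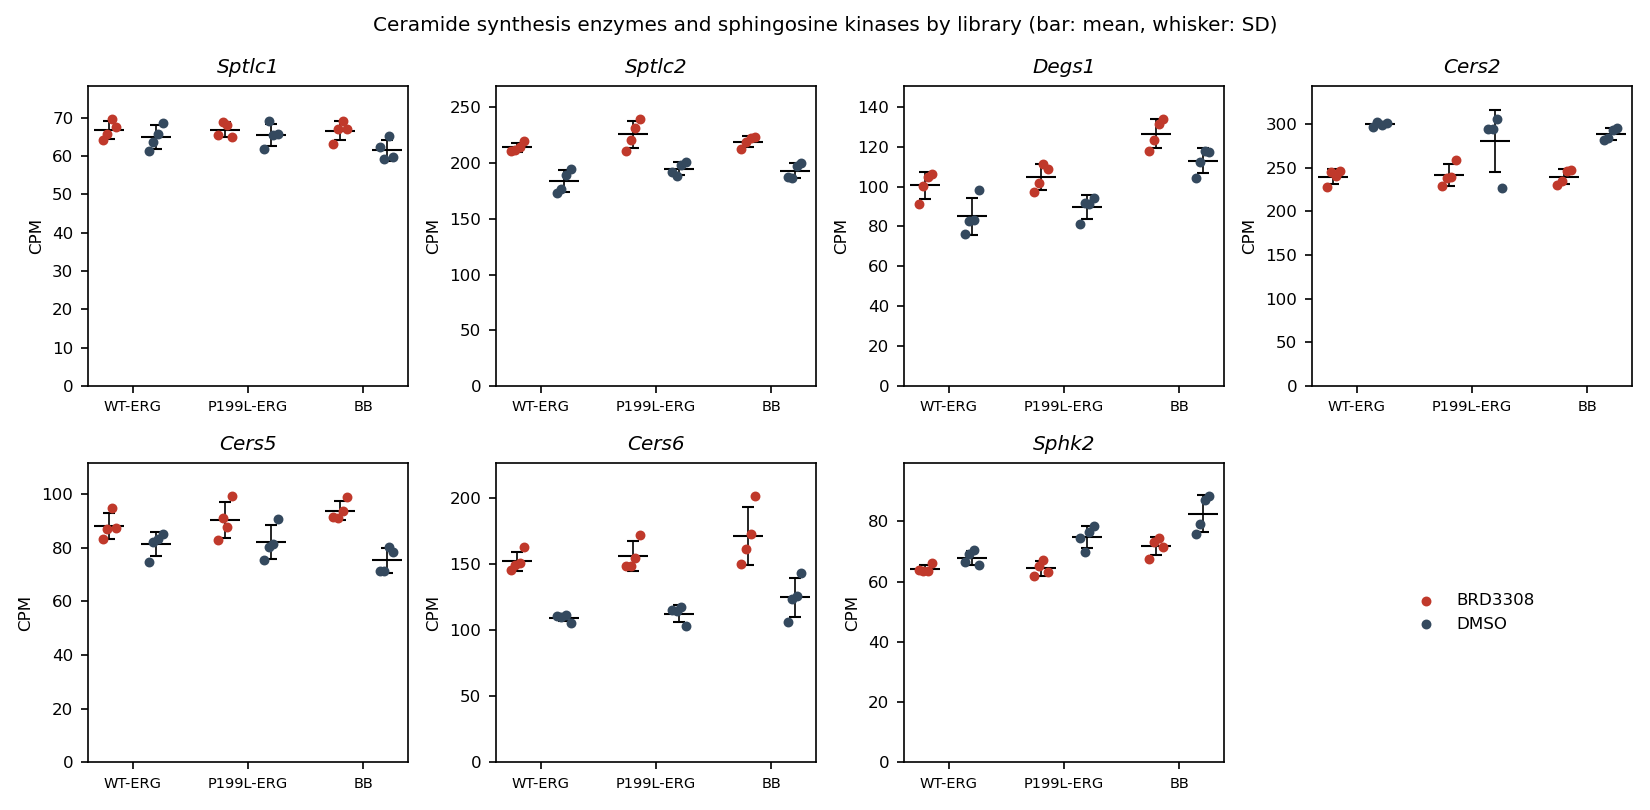
CPM of 7 members in each library (points), by construct and treatment, with the group mean (bar) and SD (whisker, n = 4). Cers6 and Sptlc2 lie higher and Cers2 lower in BRD3308 than in DMSO, apart from 1 DMSO-treated P199L-ERG library of Cers2 at 227.3 CPM.

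In DMSO, where the constructs alone were compared, 15.6% of all genes passed as higher in WT-ERG cells and 14.1% as lower, set against BB, and 15.3% and 12.9% in P199L-ERG cells. Both comparisons share the BB libraries. Of the 7 members 0 were higher in either ERG line by edgeR with no replicate block (0 at an unadjusted p under 0.05, 0 with DESeq2). Degs1 and Sphk2, 2 of the 7, were lower in both. With the replicate number as a block in the edgeR fit, Cers5 passed as higher in WT-ERG (0.11, adjusted p = 0.0368) and P199L-ERG cells (0.12, adjusted p = 0.0223). Degs1 averaged 85.0 ± 9.28 CPM in WT-ERG and 89.7 ± 5.93 CPM in P199L-ERG cells, against 112.9 ± 6.24 CPM in BB cells (SD, n = 4 each). Neither ERG line overlapped with BB cells, and the log2 fold changes were -0.41 (SE 0.07, adjusted p = 1.54e-05) and -0.33 (SE 0.07, adjusted p = 3.10e-04). Sphk2 averaged 67.9 ± 2.29 CPM in WT-ERG and 74.7 ± 3.72 CPM in P199L-ERG cells, against 82.6 ± 6.20 CPM in BB cells, with log2 fold changes of -0.28 (SE 0.05, adjusted p = 5.11e-05) and -0.14 (SE 0.05, adjusted p = 0.0262) by edgeR. The P199L-ERG call on Sphk2 was lost in the fit of the compared groups alone (adjusted p = 0.0876) and without replicate 3 or 4 of BB or replicate 2 of P199L-ERG cells in DMSO (adjusted p = 0.103 to 0.116). The remaining 5 gave values of -0.19 (Cers6, adjusted p = 0.0632) to 0.11 (Cers5) in WT-ERG and -0.15 (Cers6) to 0.12 (Cers5) in P199L-ERG cells. Cers6 in WT-ERG cells passed the threshold with DESeq2 (-0.20, adjusted p = 0.0497), in the fit of the compared groups alone (adjusted p = 0.0263), with no filter, and when BB replicate 1 or 4 in BRD3308 or P199L-ERG replicate 4 in DMSO was left out. Without BB replicate 1 in DMSO it passed in both ERG lines (-0.26, adjusted p = 0.0102, and -0.22, adjusted p = 0.0322). Sptlc2 in WT-ERG cells passed without replicate 4 of both ERG lines in DMSO (-0.10, adjusted p = 0.0492). Cers2 was not called in WT-ERG cells (0.06, adjusted p = 0.516), although its libraries did not overlap, at 296.8 to 302.4 CPM in WT-ERG, against 282.1 to 295.6 CPM in BB cells. The levels of Sgms1 were 0.377 ± 0.142 CPM in WT-ERG and 0.339 ± 0.185 CPM in P199L-ERG, against 0.499 ± 0.238 CPM in BB cells, and the adjusted p values of 0.484 and 0.338 missed the threshold.

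**Figure D3:**
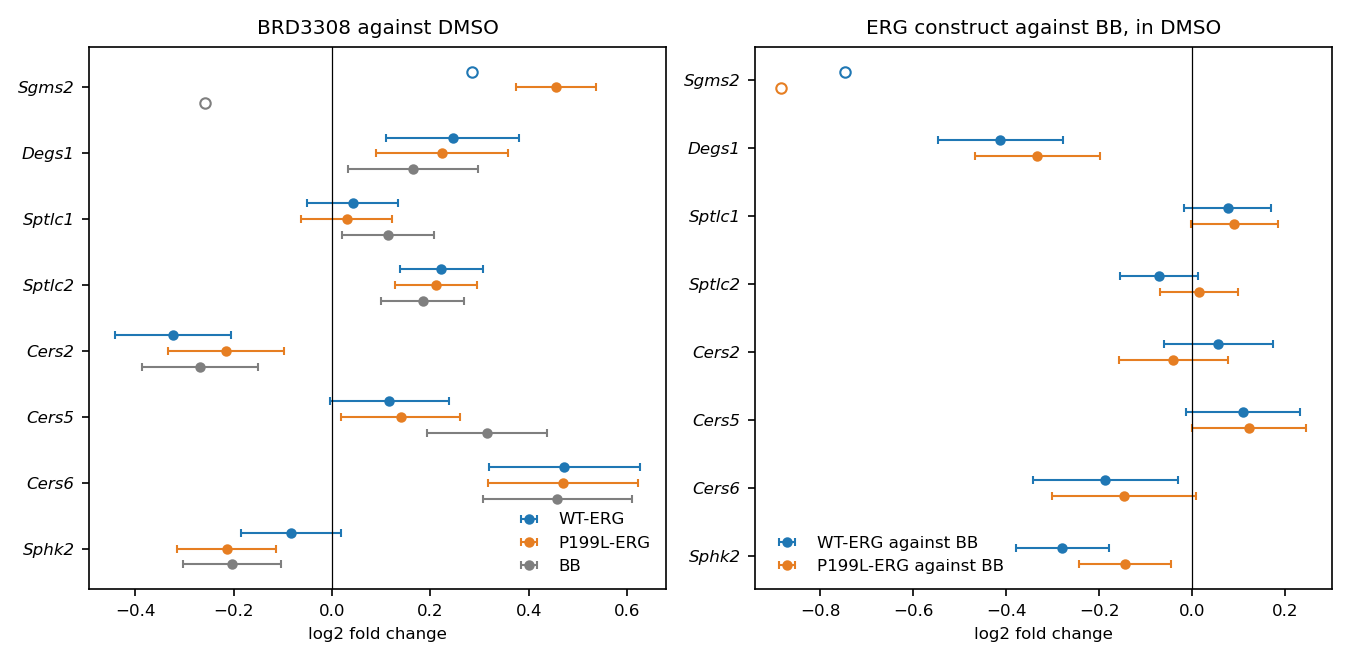
Log2 fold changes of 8 members with BRD3308 in each line (left) and in each ERG line against BB cells in DMSO (right). Filled points carry 95% intervals from the edgeR fit, and open points, for Sgms2, are given with no interval because those libraries served its selection. Sgms2 is the only gene drawn on opposite sides of 0 in the left panel.

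Between the ERG lines in DMSO, 2.23% of all genes were higher and 2.45% lower in P199L-ERG than in WT-ERG cells. Apart from Sgms2, 0 of the 8 tested members passed the threshold by DESeq2 or by edgeR with no replicate block. An unadjusted p under 0.05 was found for 2, Sphk2 (log2 fold change 0.13, adjusted p = 0.139) and Sptlc2 (0.09, adjusted p = 0.296). With the block in the edgeR fit, Sphk2 passed (0.13, adjusted p = 0.0420). The response to BRD3308 itself was then compared between lines. Over all genes the response was more positive for 0.825% and more negative for 0.903% in WT-ERG cells set against BB, and for 0.455% and 0.594% in P199L-ERG cells set against BB. Between P199L-ERG and WT-ERG cells both shares were 0.0231%, and with RLE in place of TMM factors 25% of the 4 genes called were more positive, against 50% of 6. For Sgms2 the difference in response was 0.54 in WT-ERG and 0.71 in P199L-ERG cells relative to BB cells, and 0.17 in P199L-ERG relative to WT-ERG cells, all 3 as descriptions. Of the other 8 members 0 passed in any of the 3 tests by edgeR or DESeq2, which gave no adjusted p for 1 of them between P199L-ERG and WT-ERG cells. At an unadjusted p under 0.05, edgeR gave 2 in WT-ERG against BB (Sgms1 and Cers5), 1 in P199L-ERG against BB (Cers5) and 0 in P199L-ERG against WT-ERG cells. Sgms1 had passed the filter only through its BRD3308 libraries, which enter these differences, so its value is not read as a result. The Cers5 differences were -0.20 (95% interval -0.37 to -0.03, adjusted p = 0.353) and -0.18 (-0.35 to -0.0044, adjusted p = 0.379), so its call in BB cells alone was not shown to be a difference between lines. For Cers6 the intervals were -0.20 to 0.23 in WT-ERG and -0.20 to 0.23 in P199L-ERG cells relative to BB cells.

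A further 57 genes of the pathway, on a list without the members, were read in the same fit, and 42 were tested. With BRD3308, 10 were higher and 10 lower in WT-ERG, 10 higher and 13 lower in P199L-ERG, and 14 higher and 14 lower in BB cells. In DMSO 10 were higher and 13 lower in WT-ERG, and 8 higher and 10 lower in P199L-ERG, than in BB cells. Of these, S1pr1, S1pr5 and B4galt6 had passed the filter only through BRD3308 libraries and Degs2 only through ERG libraries, so their calls rest on the filter. Without them, 17.9% of 39 genes were called higher with BRD3308 in WT-ERG, 17.9% in P199L-ERG and 28.2% in BB cells, against 24.7%, 24.4% and 24% of all genes. The shares of the 42 genes called lower were 23.8%, 31% and 33.3%, against 23.2%, 24.1% and 22% of all genes. In DMSO 22% of 41 genes were higher in WT-ERG and 17.1% in P199L-ERG cells, against 15.6% and 15.3% of all genes, and 31% and 23.8% of the 42 were lower, against 14.1% and 12.9%. No test was made of these shares. Psap, the precursor of the saposins that present sphingolipids to lysosomal hydrolases, had the smallest p of the genes that rose with BRD3308 in each line, with group means of 446, 482 and 644 CPM in WT-ERG, P199L-ERG and BB cells, against 291, 336 and 416 CPM in DMSO (log2 fold changes 0.62, 0.52 and 0.63, SE 0.03 each, largest edgeR adjusted p = 4.09e-13). In DMSO Psap was lower in both ERG lines than in BB cells (-0.52 in WT-ERG, -0.31 in P199L-ERG) and higher in P199L-ERG than in WT-ERG cells (0.21, adjusted p = 1.96e-04).

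Sgpl1, the lyase that breaks S1P down for good, had log2 fold changes of 0.37, 0.40 and 0.28 with BRD3308 in WT-ERG, P199L-ERG and BB cells, and -0.28 and -0.40 in WT-ERG and P199L-ERG against BB cells in DMSO. With BRD3308 B4galt5, which makes lactosylceramide, rose by 0.51, 0.59 and 0.49, and Ugcg, which makes the glucosylceramide before it, by 0.18, 0.20 and 0.32. Gltp, a glycolipid transfer protein, rose by 0.21, 0.24 and 0.33. The ceramidase Asah2 rose by 0.89, 1.29 and 1.61 from a low level, with 2.39, 3.08 and 1.96 CPM in BRD3308, against 1.28, 1.26 and 0.626 CPM in DMSO.

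The genes that fell with BRD3308 included the ceramide carrier Cert1, which brings ceramide to the Golgi, at -0.30, -0.25 and -0.20 in WT-ERG, P199L-ERG and BB cells. B4galnt1, which makes complex gangliosides, was at -0.34, -0.19 and -0.40, and the S1P receptor S1pr4 at -0.33, -0.38 and -0.34. All 3 passed the threshold in every line. Cptp, a ceramide-1-phosphate carrier, was lower in P199L-ERG (-0.35) and BB cells (-0.27), and its mean in WT-ERG cells was 27.9 CPM in BRD3308, against 29.2 CPM in DMSO. The S1P phosphatase Sgpp1 was lower in WT-ERG (-0.13) and BB cells (-0.36) with BRD3308, and in DMSO it was lower in WT-ERG (-0.59, adjusted p = 1.07e-10) and P199L-ERG (-0.49, adjusted p = 7.19e-09) than in BB cells.

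The S1P exporter Spns2 had the smallest p among pathway genes that were higher in the ERG lines. It had 32.6 CPM in WT-ERG and 24.4 CPM in P199L-ERG, against 15.2 CPM in BB cells in DMSO (log2 fold changes 1.10, SE 0.07, adjusted p = 3.43e-13 and 0.68, SE 0.07, adjusted p = 1.95e-08). Its mean in BRD3308 was 23.2, 19.7 and 14.8 CPM in WT-ERG, P199L-ERG and BB cells, with log2 fold changes of -0.49 (adjusted p = 4.92e-07), -0.31 (adjusted p = 4.42e-04) and -0.04 (adjusted p = 0.713) by edgeR. The difference in response between WT-ERG and BB cells, -0.45 (SE 0.10, adjusted p = 0.0125), was the only one among the 42 genes that passed. That is 2.38% of them more negative and 0% more positive, against 0.903% and 0.825% of all genes, and these shares were not tested. By edgeR 0 passed between P199L-ERG and BB cells and between P199L-ERG and WT-ERG cells, with 2 higher and 4 lower, and 1 higher and 3 lower, at an unadjusted p under 0.05, and DESeq2 was not counted for these genes. Spns2 was lower in P199L-ERG than in WT-ERG cells in DMSO (-0.42, adjusted p = 8.12e-05). The S1P receptor S1pr3 stood at 33.0 CPM in WT-ERG and 31.4 CPM in P199L-ERG, against 17.4 CPM in BB cells, in DMSO (0.92 and 0.86). Other genes higher in the ERG lines were Ugcg (0.30 and 0.18), Gm2a, the activator of ganglioside breakdown (0.18 and 0.14), and Gla, which cleaves globotriaosylceramide (0.27 and 0.32). The galactosylceramidase Galc (-0.29 and -0.25) was lower. Degs2, the second dihydroceramide desaturase, stood at 0.670 CPM in WT-ERG and 0.496 CPM in P199L-ERG, against 0.0337 CPM in BB cells in DMSO, on 141 counts in all, and is given with no test because no BB library reached the count minimum of the filter.

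**Figure D4:**
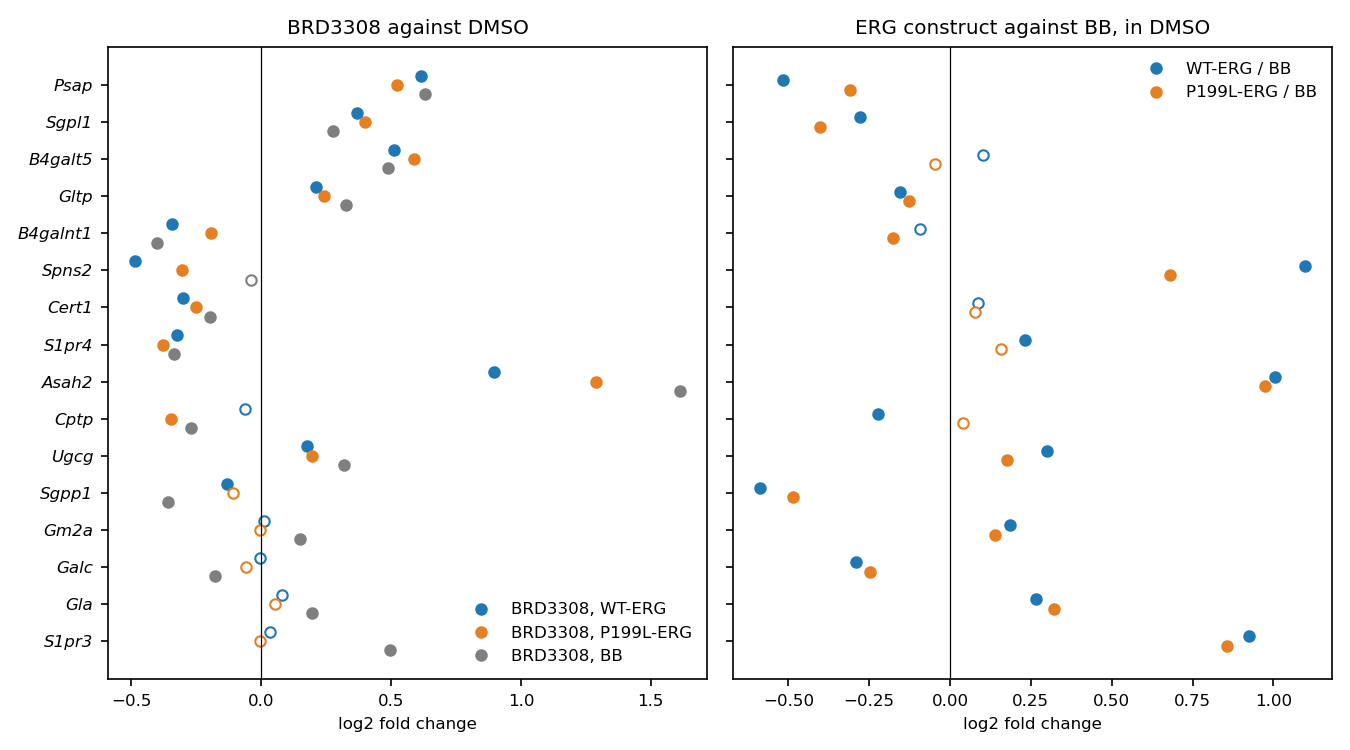
Log2 fold changes of 16 further pathway genes with BRD3308 in each line (left) and in the ERG lines against BB cells in DMSO (right). Filled points passed an adjusted p of 0.05 in the edgeR fit and open points did not. Psap, Sgpl1 and Gltp lie above 0 on the left and below 0 on the right, and Spns2, Cert1 and S1pr4 lie below 0 on the left and above 0 on the right.

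The genes whose 6 group means followed Sgms2 most closely, among 644 that varied by at least 1 on the log2 scale, were Mfhas1 (Pearson r = 0.93 over 6 groups), Syne2 (0.92), Ldlrad4 (0.92), 4930438A08Rik (0.91) and Clec4a2 (0.89). Sgms2 itself, at 1.85-fold between its highest and lowest group means, fell short of that range, so genes that varied as little were not compared. Syne2, which ties nuclei to the cytoskeleton, had 37.8, 41.0 and 61.5 CPM in BRD3308-treated WT-ERG, P199L-ERG and BB cells, against 28.0, 28.9 and 55.6 CPM in DMSO. Clec4a2, a C-type lectin receptor of myeloid cells, had 143, 153 and 219 CPM, against 108, 126 and 209 CPM. In BB cells only 4930438A08Rik had a lower mean in BRD3308, at 77.02 CPM, against 78.1 CPM in DMSO. These groups share libraries and scaling, and the correlation is given as a description.

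Marker levels moved with several of these results. With BRD3308, 24.7%, 24.4% and 24% of all genes were called higher in WT-ERG, P199L-ERG and BB cells. The shares called lower were 23.2%, 24.1% and 22%. Of 8 progenitor markers 4 were higher and 3 lower with BRD3308 in each ERG line, and 4 higher and 4 lower in BB cells. Their sum, mostly Mpo, was 23811 to 25058 CPM in WT-ERG, 24558 to 26117 CPM in P199L-ERG and 21776 to 23522 CPM in BB cells in BRD3308, against 24551 to 26427, 26063 to 29003 and 24269 to 24817 CPM in DMSO. The sum of 8 monocyte markers was 2438 to 2705 CPM in WT-ERG, 2836 to 3021 CPM in P199L-ERG and 3635 to 3904 CPM in BB cells in BRD3308, against 853 to 946, 1117 to 1216 and 1833 to 2007 CPM in DMSO, with 7 of 8 called higher in each line. The sum of 8 neutrophil markers was 5111 to 6448, 4718 to 5474 and 4392 to 5930 CPM in BRD3308, against 2145 to 3101, 1745 to 2603 and 2448 to 3126 CPM in DMSO. S100a8 and S100a9 made up most of it, and the 8 genes gave 5 higher and 1 lower call in WT-ERG, 4 higher and 0 lower in P199L-ERG, and 4 higher and 1 lower in BB cells. Ly6g, 1 of the 8, averaged 0.168, 0.118 and 0.492 CPM in DMSO, against 1.87, 2.20 and 2.70 CPM in BRD3308. At these levels it passed the filter only through BRD3308 libraries, so its calls rest on the filter. Ngp, a granule protein, averaged 241, 273 and 696 CPM in BRD3308, against 232, 322 and 857 CPM in DMSO. The sum of 6 mast cell and basophil markers was 330 to 352, 289 to 309 and 313 to 351 CPM in BRD3308, against 506 to 554, 433 to 504 and 380 to 400 CPM in DMSO, and Cpa3, a mast cell carboxypeptidase, fell by 1.75, 1.89 and 1.77 on the log2 scale. Of the 5 tested, 2, 2 and 1 were lower with BRD3308 and 0, 1 and 1 higher, and Fcer1a was at 0. In DMSO that sum was higher in both ERG lines than in BB cells, without overlap. Of the 5 tested, 3 were higher and 1 lower in WT-ERG, and 4 higher and 1 lower in P199L-ERG cells. Cpa3 averaged 221 and 172 CPM, against 84.6 CPM in BB cells, and Hdc went the other way, at 211 and 212, against 264 CPM. In DMSO, 5 of the 8 monocyte markers were lower and 1 higher in each ERG line than in BB cells. Of all genes 14.1% and 12.9% were lower in WT-ERG and P199L-ERG cells, and 15.6% and 15.3% higher. Monocyte marker sums were higher with BRD3308 in all 3 lines. As a description, Sgms2 was higher with BRD3308 in both ERG lines and lower in BB cells, and a link between them was not tested. Of 10 markers of cells outside the myeloid lineage 2 passed the filter, with sums of 11.7 to 19.4 CPM in BRD3308, against 1.96 to 4.10 CPM in DMSO, and Alb and Hba-a1 were at 0. The part of a change in cell makeup in these results was not tested, and in bulk RNA fewer cells of a type and less RNA per cell cannot be told apart.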

How the data were processed

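The deposited file held whole-number read counts per gene, which the authors made from RNA-seq reads. The submitters' processing notes name GRCm38, cutadapt, STAR, HTSeq and DESeq2, with no versions. Neither annotation release nor strand setting was given in the sources used here, and strand decides whether reads of overlapping genes are kept apart. The dose and time are those of the series' design text, and other passages of the study give a longer time and a lower dose. Genes were named from the GENCODE annotation of the same build, which matched 53706 of 53801 identifiers, and every count column was assigned to a library by its name. The counts were analysed with edgeR 4.0.16 in R 4.3.3: filterByExpr, TMM factors, 1 quasi-likelihood fit of all 24 libraries with a coefficient per group, two-sided tests, and Benjamini-Hochberg adjustment over all 12963 genes, with calls at 0.05. The procedure was tested on simulated data. DESeq2 1.42.0, other scaling and filters, the compared groups alone, a replicate block, left-out libraries and a stricter threshold were tried. No pair of libraries in a group agreed within sampling noise (lowest chi-square per gene 1.50, where 1 is that of sampling alone). Totals of 12510036 to 16280939 counts set the precision: intervals from the fit carry both counting error and the spread between libraries. All members were named; of the further pathway genes, at most 4 called higher and 4 lower per contrast, by smallest p, with Samd8 added as the relative of both synthases after its values were seen; 1 gene named by this rule is not reported here. The like genes needed a mean of at least 2 on the log2 CPM scale (0.5 added). The members and all lists were chosen with earlier results of these data known. Figures were drawn with matplotlib 3.10.9.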

Additional observations from a re-analysis of the deposited data

Results flagged for a closer look

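Over 54 sets of 4 libraries (9 members in 6 groups), 1 library stood outside the others of its group by Dixon's ratio: Cers2 in replicate 4 of DMSO-treated P199L-ERG cells, at 227.3 CPM, against 294.4 to 305.5 CPM in the other 3. Chance gives about 1 such set in 20. This library is 1 of the 2 whose values fell most with transcript length. In the other, replicate 4 of DMSO-treated WT-ERG cells, Cers2 had 301.9 CPM, within the range of its group. A link between transcript length and the Cers2 value was not tested. The response of Sgms2 to BRD3308 differed from that in BB cells by 0.54 in WT-ERG and 0.71 in P199L-ERG cells on the log2 scale, with every treated library above every untreated one in the ERG lines and below every one in BB cells. Sgms2 was selected on this pattern, so the difference was not tested. The response of Spns2 in WT-ERG cells differed from that in BB cells by -0.45 on the log2 scale (adjusted p = 0.0125 by edgeR), with group means of 23.2 CPM in BRD3308, against 32.6 CPM in DMSO, in WT-ERG cells and 14.8 CPM, against 15.2 CPM, in BB cells. It was 1 of 42 pathway genes (2.38% more negative, against 0.903% of all genes), and the alternative settings were not read for it.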

How the results depend on the processing

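None of the members' log2 fold changes that passed the threshold changed sign under any of the 32 alternatives run. Over the 7 members, the count called in P199L-ERG against BB cells was 1 in the fit of the compared groups alone and 1 at an adjusted p under 0.01, against 2, and 1 to 3 when each library was left out in turn (1 without replicate 3 or 4 of BB or replicate 2 of P199L-ERG cells in DMSO). With the replicate number as a block it was 4, against 2, in WT-ERG against BB cells and 1, against 0, in P199L-ERG against WT-ERG cells. Same-numbered libraries correlated at 0.017 to 0.38 in their deviations from the group means, above 0 in 24 of 24 pairs but over 0.1 in only 2 or 3 of 4 in each comparison. The sources name 4 independent experiments without saying that a number marks a shared one, so no pairing was assumed. As a hint from the data alone, 7 of 8 libraries correlated best with their own number, out of 4 numbers, in P199L-ERG against WT-ERG cells in DMSO. In the other comparisons 4 to 7 of 8 did, and 34 of 48 over all comparisons, which share libraries. The block also put Cers5 past the threshold with BRD3308 in WT-ERG (0.12, adjusted p = 0.0157 by edgeR) and P199L-ERG cells (0.14, adjusted p = 0.00418). Over all genes, the block raised the calls to 1026, against 606, in P199L-ERG against WT-ERG cells, and for differences in response to 421, against 224 (WT-ERG and BB), 467, against 136 (P199L-ERG and BB), and 28, against 6 (P199L-ERG and WT-ERG). With only the compared groups, 2237 genes, against 3652, were called in P199L-ERG against BB cells, 229 in P199L-ERG against WT-ERG cells and 1 for their difference in response. At an adjusted p under 0.01, 2303 were called in P199L-ERG against BB cells, 334 in P199L-ERG against WT-ERG cells, and for the differences in response 105 (WT-ERG and BB), 61 (P199L-ERG and BB) and 0 (P199L-ERG and WT-ERG). With no filter 300 and 21 genes were called for the P199L-ERG differences from BB and from WT-ERG cells, and DESeq2 called 18 for the second. Without replicate 4 of both ERG lines in DMSO, the difference in response was called for 350 genes between WT-ERG and BB cells and 13 between P199L-ERG and WT-ERG cells. Leaving out each library in turn gave 164 to 371 for WT-ERG and BB (highest without P199L-ERG replicate 4 in DMSO), 79 to 176 for P199L-ERG and BB (lowest without BB replicate 3 in DMSO) and 0 to 8 for P199L-ERG and WT-ERG. The causes were not tested. Depth limits Sgms1 and Sphk1.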
